A study of Mus musculus with 12 samples.

Results

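Transcripts of 7 subunits of the GABA-A receptor, Gabra2, Gabra3, Gabra4, Gabra5, Gabrb1, Gabrb2 and Gabrd, were followed across 12 RNA-seq libraries of mouse cortical neuron cultures. They were taken by gene symbol from a table of 23893 genes, and all 7 symbols were present with counts in every library. The cultures came from embryonic cortex (E13.5 to E15.5), and the sample labels give the strain as C57BL6. The study's methods for neuronal cultures name C57BL6/J wild-type females. Its methods for RNA-seq name Top1 fl/fl neurons, so both genotypes are taken here to carry the floxed allele. At day in vitro (DIV) 3 the cultures were infected with a lentivirus that expressed tdTomato alone (WT) or tdTomato-P2A-CRE (Top1 cKO). Its CaMKIIα promoter restricts expression to neurons. About 85 to 90% of the cells were transduced, so that other cells kept Top1. At DIV 15 the cultures received vehicle (0.003% DMSO, Veh) or 300 nM topotecan in the same vehicle (Topot) for 3 days. Each of the 4 groups, 2 without CRE (WT-Veh, or WT-Topot with drug) and 2 with it (Top1 cKO-Veh, or Top1 cKO-Topot with drug), had 3 libraries. Topoisomerase 1 (TOP1) relaxes the DNA supercoils that build up around a transcribing polymerase, and topotecan traps the enzyme on DNA in a cleavage complex. The design asks how a trapped enzyme and a missing enzyme each bear on transcript levels.

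GABA-A receptors are chloride channels that open when GABA binds and carry most fast inhibition in the cortex. Each channel is assembled from several subunits, usually alpha and beta subunits, whose interface binds GABA, together with a gamma or a delta subunit. The subunits set where a receptor sits and how it responds: receptors with gamma subunits gather at synapses on a gephyrin scaffold, and receptors with the alpha 4 or alpha 5 subunit, or with delta, mostly lie outside synapses and carry a tonic current. Many of the subunit genes lie in clusters in the genome, with genes of different families next to each other.

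In the annotation of the mm9 build (NCBIM37, GENCODE vM1), 5 of the 7 genes span more than 100 kb, against 11% of 21013 genes of the table that were matched by symbol. Gabrb1, for the beta 1 subunit, is the longest at 438 kb (chr5:72091171-72529628, plus strand). Gabra3, for alpha 3, spans 224 kb (chrX:69678020-69902187, minus strand), and Gabrb2, for beta 2, spans 213 kb (chr11:42233259-42446092, plus strand). Gabra2, for alpha 2, spans 135 kb (chr5:71352296-71487088, minus strand), and Gabra5, for alpha 5, spans 102.3 kb (chr7:64663060-64765379, minus strand). Gabra4, for alpha 4, spans 88.6 kb (chr5:71960973-72049547, minus strand), and Gabrd, for delta, spans 13.1 kb (chr4:154759089-154772221, minus strand). Gabra2, Gabra4 and Gabrb1 thus share a cluster on chromosome 5, and the start of Gabra4 lies 41.6 kb from that of Gabrb1, on the opposite strand.

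The promoters of Gabra4 and Gabrb1 are shown because these neighbours parted in transcript level with topotecan. That of Gabra5 is shown because Gabra5 was the alpha subunit with the lowest levels relative to WT-Veh. The windows run from 250 bases before to 50 bases after a start site and come from RefSeq on GRCm38.p6, another build than that of the counts. They were found for 6 of the 7 genes (not for Gabrd). RefSeq gives Gabrb1 a start that lies 387 bases inside the Gabra4 gene on the opposite strand, beside the one 41.6 kb away. Capitals mark matches to a GC box (GGGCGG) or to a motif of the transcription factor NRF1 (GCGC, any base, TGCGC), searched on both strands. Neither motif overlapped the other in these windows, and a match is a description of letters and not a binding site.
Gabra4, chr5:71658259-71658558, minus strand: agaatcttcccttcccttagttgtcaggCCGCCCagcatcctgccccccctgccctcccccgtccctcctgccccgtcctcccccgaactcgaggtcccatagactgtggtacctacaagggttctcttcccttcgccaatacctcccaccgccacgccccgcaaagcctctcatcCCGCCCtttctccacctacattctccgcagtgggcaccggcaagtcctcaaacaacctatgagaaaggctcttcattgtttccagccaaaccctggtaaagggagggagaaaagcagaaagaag
Gabrb1, start inside Gabra4, chr5:71657671-71657970, plus strand: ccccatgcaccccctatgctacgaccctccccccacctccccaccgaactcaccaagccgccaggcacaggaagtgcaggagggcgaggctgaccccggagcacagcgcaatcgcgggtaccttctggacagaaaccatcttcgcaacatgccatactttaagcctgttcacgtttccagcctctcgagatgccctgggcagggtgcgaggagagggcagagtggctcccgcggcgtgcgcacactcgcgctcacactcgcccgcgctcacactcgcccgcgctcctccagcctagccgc
Gabrb1, second start, chr5:71699682-71699981, plus strand: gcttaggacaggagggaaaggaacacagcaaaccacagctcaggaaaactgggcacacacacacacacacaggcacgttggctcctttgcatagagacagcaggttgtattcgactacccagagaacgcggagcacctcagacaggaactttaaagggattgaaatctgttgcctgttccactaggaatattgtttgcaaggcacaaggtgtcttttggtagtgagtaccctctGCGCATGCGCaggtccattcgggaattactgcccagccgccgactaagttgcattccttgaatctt
Gabra5, chr7:57510010-57510309, minus strand: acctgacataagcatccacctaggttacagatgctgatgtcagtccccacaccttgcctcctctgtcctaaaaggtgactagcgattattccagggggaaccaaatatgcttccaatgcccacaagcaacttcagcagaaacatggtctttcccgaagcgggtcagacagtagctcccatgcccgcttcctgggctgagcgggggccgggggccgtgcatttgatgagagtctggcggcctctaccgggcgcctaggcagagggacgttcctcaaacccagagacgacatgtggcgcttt
The Gabra4 window held 2 GC boxes, which 35.7% of 32851 promoter windows of this length hold at least once. The second Gabrb1 window held 1 NRF1 motif, which 4.6% of windows hold, and the first Gabrb1 window and the Gabra5 window held neither. None of the 4 windows held a TATA box (TATAAA, in 13.6% of windows) or a cAMP response element (TGACGTCA, in 1.79%). The windows differed in CG dinucleotides, with 12 in Gabra4, 25 and 9 in the first and second of Gabrb1 and 13 in Gabra5. The median over all windows was 7. Of the member windows not shown, that of Gabra2 had 25, those of Gabrb2 had 11, 9 and 9, and both of Gabra3 had 0.

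The libraries held 1730164 to 4583777 counts, so that 3 counts, taken as the floor of detection, correspond to 0.687 to 1.73 CPM (counts per 1000000 counts of the library size after scaling). Top1 itself was at 117 to 163 CPM in the tdTomato libraries and at 27.1 to 44.0 CPM in the CRE libraries. Its log2 fold change in Top1 cKO-Veh against WT-Veh was −1.98 ± 0.23 (SE, n = 3 per group, edgeR adjusted p = 0.00119, or 0.0104 without WT-Veh replicate 2). All 8 neuronal marker genes were above the floor in every group, with a summed level of 5065 to 6767 CPM, and 0 of 6 microglial markers were. With topotecan in WT cells 1 neuronal marker, Rbfox3, was called lower, and the progenitor marker Nes and the interneuron marker Calb2 were called higher. Nes does not stand for the 8 progenitor markers, of which 1 was called higher and 0 lower. Only 4 of these 8 were above the floor in every WT-Topot library. Calb2 does not stand for the 13 interneuron markers, of which 1 was called higher and 0 lower. Their summed level was 828 to 1791 CPM in WT-Veh and 613 to 1104 CPM in WT-Topot. Group means moved both ways, as with Gad1 (449 to 215 CPM) and Lhx6 (30.3 to 52.4 CPM). The 7 astrocyte markers summed to 2041 to 4307 CPM in WT-Veh and to 782 to 1200 CPM in WT-Topot, so the cultures were not purely neuronal. In the CRE cultures they summed to 2251 to 5462 CPM under vehicle and to 1371 to 2397 CPM under topotecan. The promoter restricts CRE to neurons, so these sums do not stand for astrocytes without TOP1. In such bulk libraries, fewer cells of a type and less RNA per cell cannot be told apart. The study describes its replicates as cultures, so p-values refer to the spread between cultures, which edgeR estimates in part from all genes. Libraries with the same replicate number deviated together in all 4 groups. Calls are therefore given from a fit without and a fit with the number as a block. With the block, the SE of Gabrb1 in WT-Topot against WT-Veh was 0.28, while its differences within numbers had an SD of 0.85. Small p-values of the blocked fit thus do not measure the spread of the single gene alone.

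The replicate 2 libraries stood apart for Gabra2, whose alpha 2 subunit serves synapses on the axon initial segment and cell body. Its level in replicates 1, 2 and 3 was 28.1, 132 and 39.7 CPM in WT-Veh and 14.7, 105 and 32.97 CPM with topotecan. In Top1 cKO cells it was 20.3, 106 and 29.1 CPM under vehicle and 18.7, 80.7 and 22.3 CPM under topotecan. In each of the 4 groups replicate 2 was 3.89 to 4.42 times the mean of the other two. Of 13720 genes whose mean reached 1 CPM, 4 were at least 2-fold higher in replicate 2 than in both other replicates of all 4 groups, and these were Gabra2, Atf7, Xist and Tsix. Xist, the RNA of the inactive X chromosome, was at 481 to 1419 CPM in the replicate 2 libraries and at 0 to 4.61 CPM in the others. The part of embryo sex, which Xist marks, in the Gabra2 level was not tested.

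**Figure D1:**
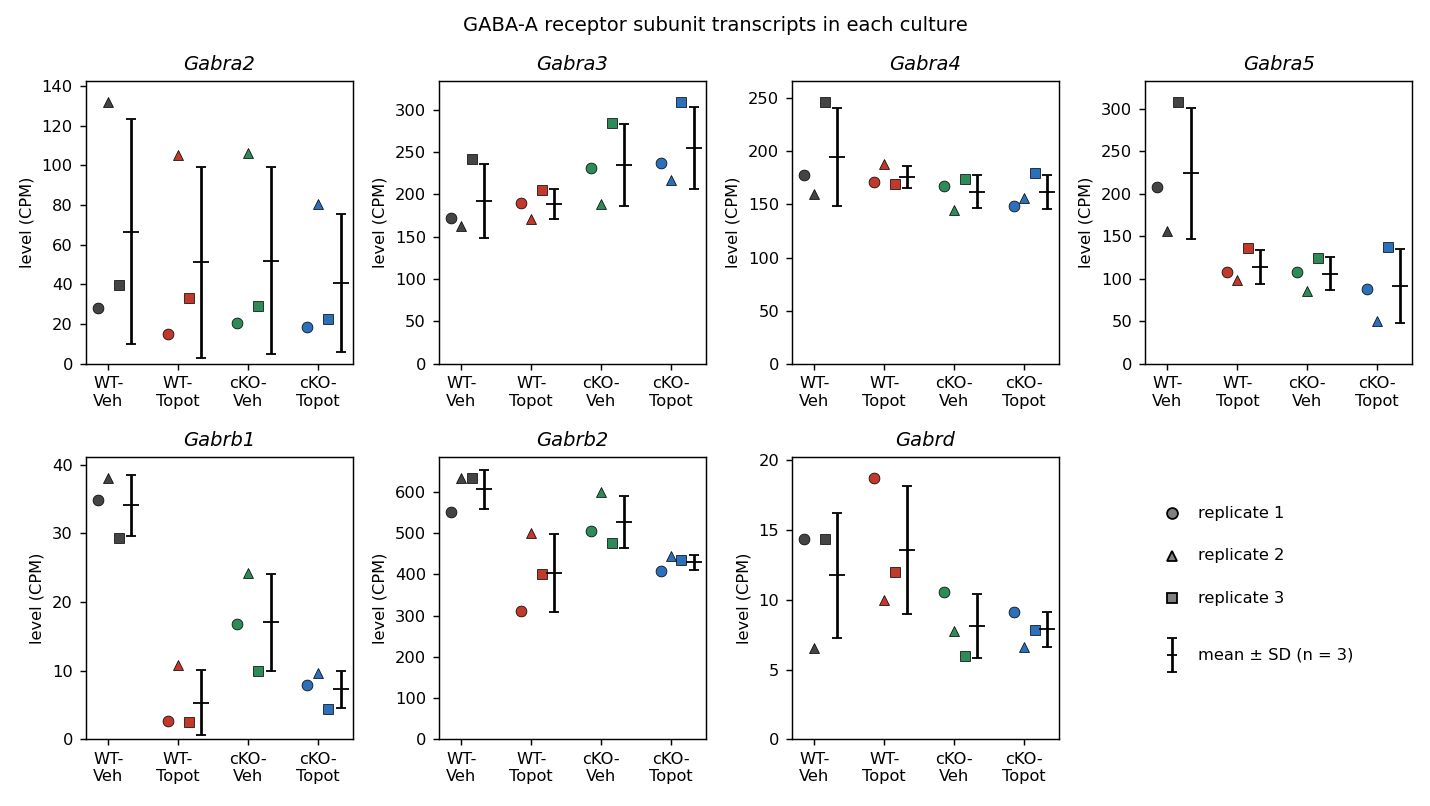
Level of each subunit transcript (CPM, scaled to effective library size) in the 12 libraries, with colours for groups, marker shapes for replicate numbers, and bars for the mean ± SD of 3 libraries beside each group. Gabrb1 and Gabra5 were highest in the 3 WT-Veh libraries, and Gabra2 was highest in replicate 2 of every group.

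With TOP1 present, topotecan lowered Gabrb1. The beta 1 subunit is a less abundant partner of alpha subunits than beta 2 in most of the cortex. Gabrb1 was at 34.8, 38.1 and 29.4 CPM in WT-Veh, from 119, 87 and 51 counts, and at 2.68, 10.9 and 2.57 CPM in WT-Topot, from 8, 38 and 6 counts. All WT-Topot libraries were below all WT-Veh libraries, and replicate 2 of WT-Topot was about 4 times the other two. The log2 fold change of Gabrb1 was −2.59 ± 0.40 (SE, n = 3 per group), a 6.03-fold lower level (edgeR quasi-likelihood test, Benjamini-Hochberg adjusted p = 3.07e-04). It was the only one of the 7 genes called lower at an FDR of 0.01, where 2.04% of all 23893 genes were called lower, and its call held without any single library. Without WT-Topot replicate 2 the log2 fold change was −3.67, and without the other single libraries it was −2.68 to −2.26. Within replicate numbers, the log2(CPM + 1) of Gabrb1 fell by 3.28, 1.72 and 3.09. Astrocyte markers were lower in the same libraries, with 3 of 7 called lower (Gfap, Slc1a2 and Slc1a3), and their part in the Gabrb1 level was not tested.

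Gabra5 and Gabrb2 were lower in every WT-Topot library than in every WT-Veh library but did not pass this threshold. Gabra5, whose receptors carry a tonic current and are abundant in hippocampus and deep cortex, was at 208, 156 and 308 CPM in WT-Veh and at 107.6, 98.2 and 137 CPM in WT-Topot. The groups did not overlap, and the log2 fold change was −0.97 ± 0.23 (edgeR adjusted p = 0.0139). Gabrb2, the most abundant of the 7 transcripts in counts and part of the most common cortical receptor, was at 551, 633 and 634 CPM in WT-Veh and at 310, 499.5 and 399.6 CPM in WT-Topot. Its log2 fold change was −0.58 ± 0.18 (edgeR adjusted p = 0.0816). Once the replicate number was added as a block, Gabra5 (−0.93, edgeR adjusted p = 7.78e-09) and Gabrb2 (−0.61, edgeR adjusted p = 3.90e-06) were called lower beside Gabrb1, which made 3 of 7 genes against 5.0% of all genes. The Gabra5 call without the block also turned on single libraries: its edgeR adjusted p was 0.00683 without WT-Topot replicate 3, 0.00232 without WT-Veh replicate 1 and 9.33e-04 without WT-Veh replicate 2.

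The other 4 transcripts were not called in WT-Topot with or without the block. Gabra3, which is prominent in the immature cortex, was at 172, 163 and 242 CPM in WT-Veh and at 189, 171 and 206 CPM in WT-Topot, with a log2 fold change of −0.02 and an interval (95%) of −0.42 to 0.38. The direction of that value turned with the scaling of the libraries. Gabra4, whose alpha 4 subunit pairs with delta outside synapses, was at 177, 160 and 246 CPM in WT-Veh and at 171, 188 and 169 CPM in WT-Topot, with a log2 fold change of −0.14 and an interval of −0.53 to 0.26. Gabra3 and Gabra4 therefore overlapped between the groups, and their intervals leave out a change as large as that of Gabrb1. Gabrd was at 14.3, 6.57 and 14.4 CPM in WT-Veh and at 18.8, 10.02 and 11.99 CPM in WT-Topot, with a log2 fold change of 0.21 and a wide interval of −0.54 to 0.97 at 15 to 56 counts per library. For Gabra2, with the replicate 2 libraries far above the others, the interval was wider still, from −1.46 to 0.72 around a log2 fold change of −0.37, and with the block the value was −0.47 ± 0.18 (edgeR adjusted p = 0.0739). The log2 fold change was below 0 for 6 of the 7 genes (median −0.37) and for 6539 of the 13736 genes whose mean reached 1 CPM in these libraries (median 0.03).

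Deletion of Top1 without drug left its lowest values at Gabra5 and Gabrb1. None of the 7 genes passed an FDR of 0.01 in Top1 cKO-Veh against WT-Veh in edgeR's quasi-likelihood test, where 0.126% of all genes were called lower. At an unadjusted p under 0.05 there were 2, and DESeq2 called 1 and edgeR's exact test 0. Gabra5 was at 107.9, 85.6 and 125 CPM in Top1 cKO-Veh, all below the 156 to 308 CPM of WT-Veh. Its log2 fold change was −1.08 ± 0.24 (edgeR adjusted p = 0.0503), a 2.11-fold lower level. Gabrb1 was at 16.8, 24.3 and 10.02 CPM, again below all WT-Veh libraries, with a log2 fold change of −0.97 ± 0.30 (edgeR adjusted p = 0.217). With the block both were called lower, Gabra5 at −1.04 (edgeR adjusted p = 1.83e-13) and Gabrb1 at −1.003 (edgeR adjusted p = 1.43e-04), or 2 of 7 genes against 2.95% of all genes. Of the 7 astrocyte markers 0 were called lower in Top1 cKO-Veh by edgeR. Within replicate numbers their summed level went from 4307 to 5462, from 3130 to 3506 and from 2041 to 2251 CPM. The single marker Slc1a2, for a glutamate transporter, went from 1550 to 2463, from 1937 to 2346 and from 1103 to 1380 CPM, and Gfap, for the astrocyte filament protein, from 1151 to 1233, from 364 to 358 and from 481 to 431 CPM, so the markers did not move alike. Their part in the Gabra5 and Gabrb1 values was not tested.

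The remaining 5 transcripts were not called after deletion in either fit. Gabrb2 was at 505, 599 and 476 CPM, which overlapped WT-Veh, with a log2 fold change of −0.20 and an interval of −0.55 to 0.14. Gabra4 was at 167, 145 and 174 CPM with a log2 fold change of −0.26 (interval −0.68 to 0.16), and Gabrd was at 10.6, 7.79 and 6.01 CPM with a log2 fold change of −0.53 (interval −1.35 to 0.30). Gabra3 was the one member with a positive value, at 231, 188 and 285 CPM with a log2 fold change of 0.29 (interval −0.15 to 0.73), and it was higher in all 3 pairs of libraries with the same number. Gabra2 had a log2 fold change of −0.33 (interval −1.48 to 0.83), and within replicate numbers its log2(CPM + 1) fell by 0.45, 0.31 and 0.44, a narrower spread than the replicate 2 libraries leave in the group means.

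**Figure D2:**
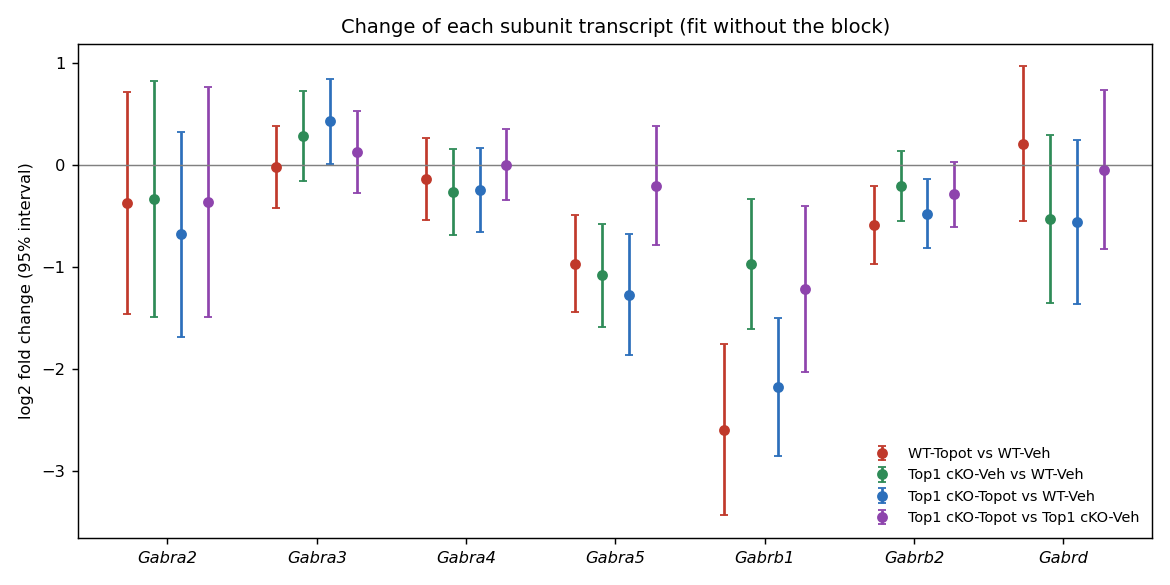
Log2 fold change of the 7 transcripts in 4 comparisons (edgeR fit without the block), with points for the estimate and bars for the 95% interval. The Gabrb1 intervals lay below 0 in all 4 comparisons, and those of Gabra5 in the 3 comparisons with WT-Veh.

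Both manipulations together gave values close to those of topotecan alone for Gabrb1. In Top1 cKO-Topot it was at 7.97, 9.63 and 4.37 CPM, and the log2 fold change against WT-Veh was −2.17 ± 0.32 (edgeR adjusted p = 2.35e-04). Gabrb1 was again the only gene of the 7 called lower, against 1.21% of all genes, and with replicates 1 and 3 alone its edgeR adjusted p was 0.0332. Gabra5 was at 88.0, 50.1 and 137 CPM, below all WT-Veh libraries, with a log2 fold change of −1.27 ± 0.29 (edgeR adjusted p = 0.0128). It passed the threshold when Top1 cKO-Topot replicate 1 or 3 or any WT-Veh library was left out, with edgeR adjusted p-values of 3.77e-06 to 0.00557. Gabrb2 was at 408, 445 and 434 CPM, also below all WT-Veh libraries, with a log2 fold change of −0.48 ± 0.16 (edgeR adjusted p = 0.127). With the block 4 of 7 genes were called lower, against 4.02% of all genes: Gabrb1, Gabra5, Gabrb2 (edgeR adjusted p = 0.00151) and Gabra2 (−0.69, edgeR adjusted p = 0.0075). Gabra3 had a log2 fold change of 0.43 (interval 0.01 to 0.85), at 237, 217 and 309 CPM. Gabra4, at 149, 156 and 179 CPM, had one of −0.24 (interval −0.65 to 0.17), and Gabrd, at 9.16, 6.64 and 7.87 CPM, one of −0.56 (interval −1.36 to 0.25). The 3 comparisons above share the WT-Veh libraries, so their values are not independent of each other.

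Against Top1 cKO-Veh, a comparison that leaves WT-Veh out, topotecan in Top1 cKO cells gave 0 calls among the 7 genes in edgeR's quasi-likelihood test, where 0.00837% of all genes were called lower. At an unadjusted p under 0.05 there was 1, and DESeq2 and edgeR's exact test called 0. Gabrb1 was lower in all 3 Top1 cKO-Topot libraries than in all 3 Top1 cKO-Veh libraries, with a log2 fold change of −1.22 ± 0.38 (edgeR adjusted p = 0.605). With the block it was called lower (edgeR adjusted p = 6.62e-04), the only one of the 7 genes against 1.74% of all genes, and within replicate numbers its log2(CPM + 1) fell by 0.99, 1.25 and 1.04. Gabrb2 did not overlap either, with a log2 fold change of −0.29 (interval −0.60 to 0.03, blocked edgeR adjusted p = 0.0173). Gabra5, in contrast to its values against WT-Veh, overlapped between these groups, with a log2 fold change of −0.20 (interval −0.79 to 0.38). The astrocyte marker sum was lower with drug in every pair as well, going from 5462 to 2397, from 3506 to 2167 and from 2251 to 1371 CPM, and its part in the Gabrb1 values was not tested.

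The test of the interaction asks whether the topotecan effect itself differed between WT and Top1 cKO cells. None of the 7 genes passed in edgeR's quasi-likelihood test, where 0.435% of all genes did; 1 had an unadjusted p under 0.05 and DESeq2 called 0. The effect on Gabrb1 was smaller in Top1 cKO cells by 1.37 on the log2 scale (interval 0.08 to 2.65, edgeR adjusted p = 0.55; without WT-Topot replicate 2 by 2.45, edgeR adjusted p = 0.0344), and that on Gabra5 by 0.76 (interval −0.07 to 1.59, edgeR adjusted p = 0.695). With the block the edgeR adjusted p-values were 0.0169 for Gabrb1 and 0.0332 for Gabra5, so that no member was called, against 3.97% of all genes. A smaller topotecan effect in Top1 cKO cells was thus not established for any of the 7 genes at this threshold.

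Set directly side by side, WT-Topot gave lower mean levels of both beta transcripts than Top1 cKO-Veh. The libraries of the groups overlapped for both, and neither passed without the block. Gabrb1 was lower in WT-Topot by 1.64 ± 0.47 on the log2 scale (edgeR adjusted p = 0.0686) and Gabrb2 by 0.39 ± 0.18 (edgeR adjusted p = 0.383). Without the block 1.23% of all genes were called lower, and of the 7 there were 2 genes at an unadjusted p under 0.05 and 0 by DESeq2 or edgeR's exact test. Both were called lower with the block (edgeR adjusted p = 3.23e-05 and 0.0017), against 4.8% of all genes. Without WT-Topot replicate 2, Top1 cKO-Veh replicate 1 or Top1 cKO-Veh replicate 3, Gabrb1 also passed without the block (edgeR adjusted p = 9.09e-04, 0.00644 and 3.60e-04), with a log2 fold change of −2.68, −1.66 and −1.89. Gabra5 had a log2 fold change of 0.11 (interval −0.29 to 0.52), so the values of the alpha 5 transcript after the drug and after the deletion could not be separated. Under topotecan, Top1 cKO and WT cells gave no call among the 7 genes by edgeR's quasi-likelihood test, against 2.49% of all genes in either direction, with 2 at an unadjusted p under 0.05 and 0 by DESeq2 or edgeR's exact test. All 3 Top1 cKO-Topot libraries were above all WT-Topot libraries for Gabra3 (0.43 ± 0.17, edgeR adjusted p = 0.206), which was called higher with the block (0.42, edgeR adjusted p = 0.00454), against 4.6% of all genes. Gabrd was below in all 3 libraries (−0.79, interval −1.51 to −0.07) and was not called in either fit.

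By mean level, both beta transcripts were highest in WT-Veh and then in Top1 cKO-Veh, lower in Top1 cKO-Topot and lowest in WT-Topot (Gabrb1 at 34.1, 17.04, 7.32 and 5.38 CPM, and Gabrb2 at 606, 527, 429 and 403 CPM). For Gabrb1 both steps down to Top1 cKO-Topot passed only with the block, and the last step, to WT-Topot, in neither fit (edgeR adjusted p = 0.93, and 0.524 with the block). For Gabrb2 no step between neighbours in this order passed in either fit. For Gabra5 the level went down from WT-Veh to WT-Topot, then by little to Top1 cKO-Veh and last to Top1 cKO-Topot (224, 114, 106 and 91.7 CPM). Of these 2 fits its first step passed only that with the block, and the 3 groups below WT-Veh did not differ beyond their spread. No neighbours in the order of Gabra2, Gabra3, Gabra4 or Gabrd differed in either fit. Over the 12 libraries Pearson's r between Gabrb1 and Gabrb2 was 0.919 on log2(CPM + 1), the highest among the 7 genes and given as a description, since the libraries share groups and replicate numbers.

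**Figure D3:**
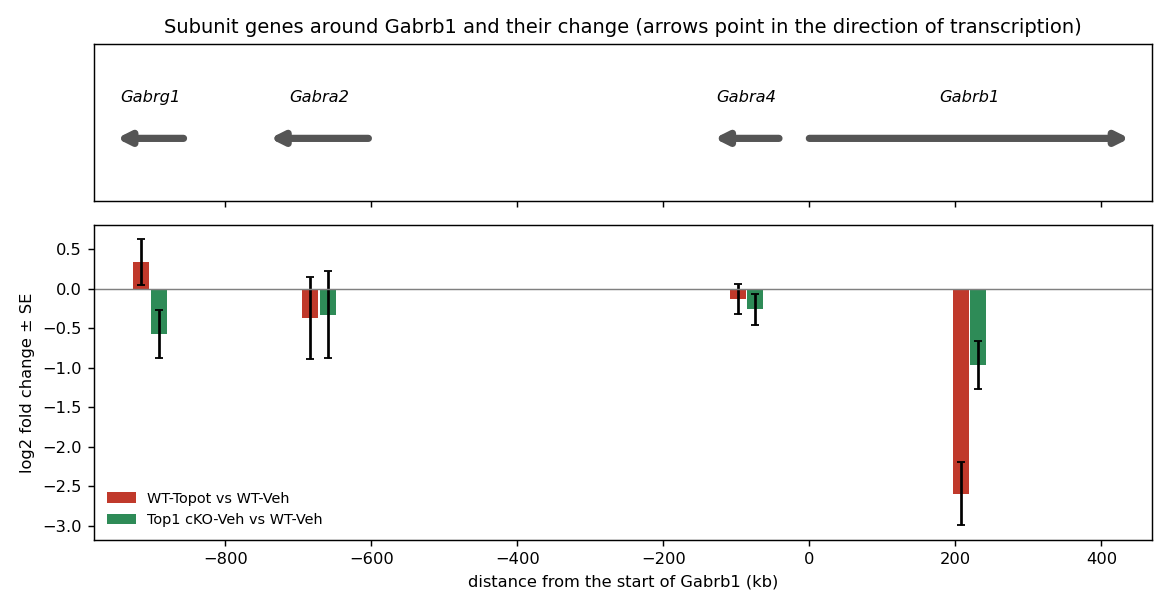
Position of the 4 subunit genes of the chromosome 5 cluster, in kb from the start of Gabrb1, and their log2 fold change ± SE with topotecan and with Top1 deletion. Gabrb1 had the lowest value of the 4 in both comparisons, and its neighbour Gabra4 was at −0.14 with topotecan and −0.26 with deletion.

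With topotecan the neighbours within the chromosome 5 cluster did not move alike. Next to Gabrb1 (−2.59), Gabra4 had a log2 fold change of −0.14 and Gabra2 one of −0.37. Gabrg1, for the gamma 1 subunit, was at 0.34 ± 0.29 (edgeR adjusted p = 0.82). After deletion Gabrb1 was at −0.97, Gabra2 at −0.33 and Gabra4 at −0.26. The Gabrb1 interval there (−1.61 to −0.33) overlapped those of Gabra2 and Gabra4. Mean Gabrg1 went from 41.7 CPM in WT-Veh to 27.9 CPM in Top1 cKO-Veh. Whether the counting used strand is not given in the sources used here, so reads from the stretch where the first Gabrb1 exon and Gabra4 overlap cannot be assigned to either gene with certainty.

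Gene span alone did not order the members. With topotecan, genes over 100 kb whose mean reached 1 CPM (1951 genes) had a median log2 fold change of −0.42, and 18% of them were called lower (34.1% with the block), against a median of 0.08 and 1.1% (4.47% with the block) for 10749 shorter genes. Gabra3 at 224 kb (−0.02) and Gabrb2 at 213 kb (−0.58) are close in span, and the intervals of their log2 fold changes overlapped. After deletion, genes over 100 kb had a median of −0.05, and 0.561% were called lower, or 11.8% with the block, against 0.178% and 4.04% of shorter genes. Gabra5, at 102.3 kb just above this limit, and Gabrb1, the longest, had about equal values (−1.08 and −0.97), and Gabra3 had a positive one (0.29). These are descriptions, since the 7 genes share libraries.

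**Figure D4:**
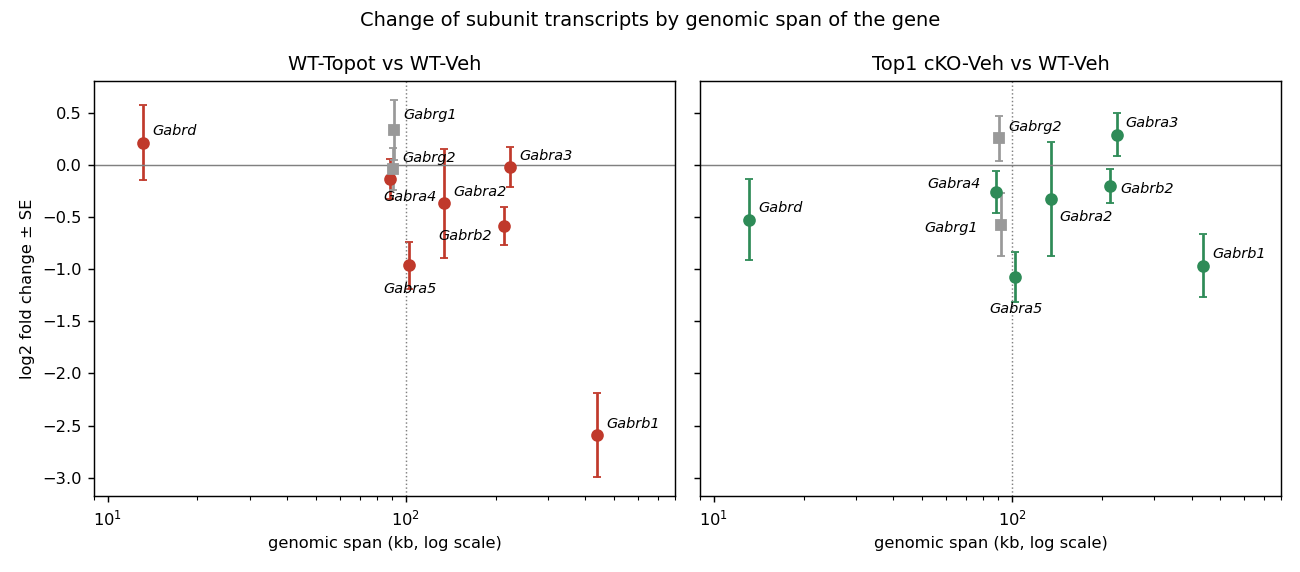
Log2 fold change ± SE against the genomic span of the gene (kb, log axis) for the 7 genes (coloured circles) and 2 other subunit genes (grey squares), with a dotted line at 100 kb. With topotecan the longest gene, Gabrb1, had the lowest value, and Gabra3 at 224 kb lay near 0 in the same panel.

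On a scale of CPM per kb of exon, Gabra5 was the largest of the 4 alpha members by mean share in WT-Veh, and Gabra3 in the other 3 groups. Exon lengths came from GENCODE vM1 while reads were counted over RefSeq exons, so ranks between genes depend on these lengths. Gabra5 made up 40.1% ± 8.5 (SD, n = 3) of the summed level per kb of Gabra2, Gabra3, Gabra4 and Gabra5 in WT-Veh and 28.0% ± 5.6 in WT-Topot. After deletion it made up 24.9% ± 4.04 under vehicle and 21.7% ± 7.9 under topotecan. The difference from WT-Veh was −15.2 percentage points in Top1 cKO-Veh, with no overlap (two-sided exact permutation test, p = 0.1, and no lower p can be reached with 3 against 3). In WT-Topot it was −12.1 percentage points, but the libraries overlapped, with a highest share of 32.5% there and a lowest of 30.3% in WT-Veh (exact p = 0.2). That lowest share was in replicate 2, where Gabra2 was high, and replicates 1 and 3 of WT-Veh were at 44.3% and 45.7%. Within replicate numbers the share was lower in every pair, at 29.7%, 21.8% and 32.5% in WT-Topot. Without division by exon length the groups did not overlap (exact p = 0.1). Gabra3 took 23.5% ± 1.9 in WT-Veh and 31.3% ± 5.1 in WT-Topot, and deletion gave 37.1% ± 6.2 in Top1 cKO-Veh (exact p = 0.1 for both). Gabra4 took 22.6% ± 2.3 in WT-Veh, 27.7% ± 2.4 in WT-Topot (exact p = 0.1) and 24.5% ± 2.7 in Top1 cKO-Veh (exact p = 0.4). The Gabra2 share was 4.52 to 28.4% over the libraries of these 3 groups, with the highest value of each group in replicate 2. Of the summed level of the beta pair, Gabrb1 made up 15.3% ± 2.1 in WT-Veh, 3.75% ± 2.4 in WT-Topot and between these, at 9.17% ± 2.6, in Top1 cKO-Veh (exact p = 0.1 for both). In Top1 cKO-Topot it made up 5.18% ± 1.8, so Gabrb2 was the larger of the pair in every group. These shares sum to 100% and are not independent of each other.

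**Figure D5:**
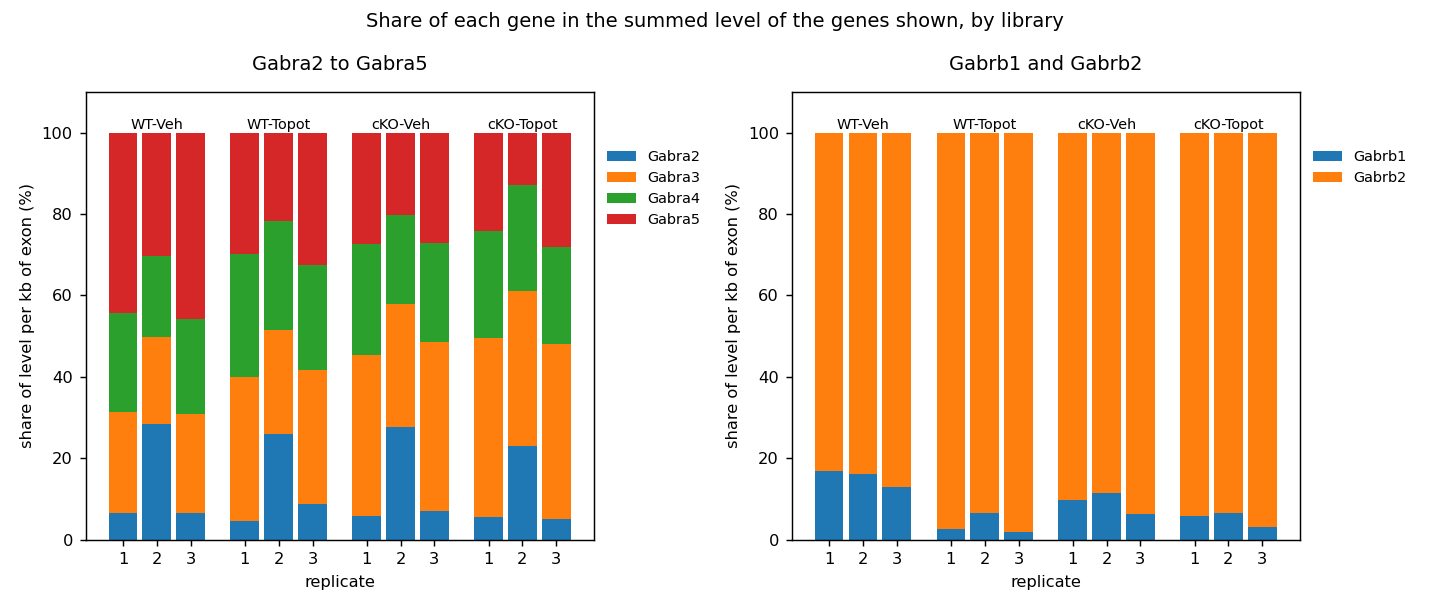
Share of each gene in the summed level (CPM per kb of exon, %) of the 4 alpha members or of Gabrb1 and Gabrb2 in the 12 libraries, 3 replicates per group. The mean share of Gabra5 was highest in WT-Veh, and the Gabrb1 segment was thinner in all other groups.

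On the same scale, levels in WT-Veh ranged from 4.09 ± 1.56 CPM per kb for Gabrd and 11.04 ± 1.4 for Gabrb1 to 84.5 ± 29.1 for Gabra5. Gabrb2 was at 61.1 ± 4.8 CPM per kb, Gabra3 at 49.0 ± 11.02, Gabra4 at 47.2 ± 11.1 and Gabra2 at 27.8 ± 23.8. In WT-Topot, Gabra3 (48.04 ± 4.5), Gabra5 (43.02 ± 7.6), Gabra4 (42.7 ± 2.5) and Gabrb2 (40.6 ± 9.6) overlapped within their SDs, and Gabrb1 was at 1.74 ± 1.54.

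Of 12 genes for the inhibitory postsynapse, topotecan in WT cells gave 4 called lower and 0 called higher, where 2.04% of all genes were called lower and 0.682% higher: Gphn, for the scaffold gephyrin (−2.18), and the adhesion and scaffold genes Ptprd (−2.19), Magi2 (−2.16) and Il1rapl1 (−3.05). These 4 genes span 458 to 2271 kb, and of all genes over 100 kb 18% were called lower. Nlgn2, for the adhesion protein neuroligin 2 and the most abundant of that list, had a log2 fold change of −0.16 (interval −0.57 to 0.24). The median of that list was −0.47, against 0.03 for all genes whose mean reached 1 CPM. With the block 6 of the 12 were called lower, against 5.0% of all genes. With Top1 deletion 1 of the 12 was called lower (against 0.126% of all genes), Ptprd (−1.31, edgeR adjusted p = 0.00639), and its call was lost without Top1 cKO-Veh replicate 2 (0.0149) or WT-Veh replicate 2 (0.0293). Gphn was at −0.68 there (edgeR adjusted p = 0.197, with the block 4.47e-04). With the block 4 of the 12 were called lower and 1 higher, against 2.95% and 2.60% of all genes. In Top1 cKO-Topot against WT-Veh, where 1.21% of all genes were called lower, the same 4 were called, with log2 fold changes of −1.88 for Gphn, −2.41 for Ptprd, −1.57 for Magi2 and −2.86 for Il1rapl1, and the Il1rapl1 call was lost without replicate 2 of either group (edgeR adjusted p = 0.0164 and 0.0266). In the 4 lists that follow, Top1 deletion gave no call in edgeR's quasi-likelihood test (0.0460% of all genes were called higher), with 1 gene lower and 6 higher at an unadjusted p under 0.05, 0 lower and 3 higher by DESeq2, and 0 lower and 2 higher by edgeR's exact test. With the block 0 genes of these lists were called lower and 7 higher, against 2.60% of all genes called higher: 2 for assembly and trafficking, 3 for GABA synthesis and turnover, 1 for GABA-B receptors and 1 for chloride transport.

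Of 12 genes for receptor assembly and trafficking, topotecan in WT cells lowered 2 and raised 1, against 2.04% and 0.682% of all genes. Plcl1 (−1.42) and Plcl2 (−0.84) encode PRIP proteins, which bind beta subunits and GABARAP, and the Plcl2 call was lost without replicate 1, 2 or 3 of WT-Topot or replicate 2 of WT-Veh (edgeR adjusted p = 0.0415, 0.0123, 0.0407 and 0.0207), and with library totals or upper quartile scaling (0.0142 and 0.0102). Hap1, for a partner of beta subunits in recycling, rose by 1.85 on the log2 scale, and by 1.77 in Top1 cKO-Topot against WT-Veh (0.473% of all genes were called higher), where the call was lost without Top1 cKO-Topot replicate 2 (edgeR adjusted p = 0.0284). After deletion alone Hap1 was at about the same level, at 360 ± 138 CPM (SD, n = 3) against 105 ± 38.0 CPM in WT-Veh and 378 ± 122 CPM in WT-Topot. That log2 fold change of 1.78 missed the threshold (edgeR adjusted p = 0.0113), which it passed with the block (3.37e-41) and without replicate 1 or 3 of either group (2.91e-06 to 0.00562). Gabarapl1, the most abundant of that list, had a log2 fold change of 0.17 (interval −0.19 to 0.53). Of 5 GABA-B receptor genes, Kctd12, for an auxiliary subunit, rose by 1.40 (and by 1.01 in Top1 cKO-Topot, a call lost without replicate 2 of either group), and Gabbr1, the most abundant, was at 0.44 (interval 0.09 to 0.78, edgeR adjusted p = 0.195, with the block 0.00109). With the block 1 of the 5 was called lower and 2 higher, against 5.0% and 3.24% of all genes. Of 8 genes for the synthesis, release, uptake and breakdown of GABA, none was called by edgeR's quasi-likelihood test, with 2 lower and 3 higher at an unadjusted p under 0.05, 1 lower and 1 higher by DESeq2, and 0 lower and 1 higher by edgeR's exact test. With the block 2 genes of this list were called lower and 3 higher, against 5.0% and 3.24% of all genes. Of 6 chloride transporter genes none was called by edgeR's quasi-likelihood test (1 higher at an unadjusted p under 0.05, 1 higher by DESeq2 and 1 higher by edgeR's exact test). The most abundant of them, Slc12a5, for the neuronal chloride exporter KCC2, was at 0.74 (edgeR adjusted p = 0.0125). It was called higher with the block (edgeR adjusted p = 1.23e-07), with library totals (0.00334), with upper quartile scaling (0.00736), in the fit on all 12 libraries (0.00715), by the exact test (0.00443) and by DESeq2 (8.81e-04).

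By Pearson's r of log2(CPM + 1) over the 12 libraries, among 9506 genes whose mean reached 10 CPM, the transcripts most like Gabrb1 were Cacna2d1 (r = 0.971), for a calcium channel subunit, and Pkp4 (0.969). Those most like Gabrb2 were Hecw1 (0.98) and Mmp16 (0.969), and those most like Gabra5 were Rdh11 (0.969) and Gm9962 (0.968). Gabra2 was most like Fam65b (0.936) and 9930021J03Rik (0.933), Gabra3 most like Rraga (0.976) and Ublcp1 (0.954), Gabra4 most like Slc35a5 (0.886) and Oscp1 (0.871), and Gabrd most like Eif2b4 (0.955) and Selm (0.935). After the group means were taken out, these correlations were 0.858 to 0.977. The points share groups, replicate numbers and depth, and the values are descriptions.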

How the data were processed

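The authors deposited raw counts of reads over RefSeq exons, summed by gene symbol, with no normalization. Per the study's methods and the submitters' processing notes, reads were filtered with TagDust, aligned to mm9 with TopHat and cleared of rRNA reads. The counting program, its use of strand and the software versions are not given in the sources used here, so overlapping genes may share counts. From the deposited counts, libraries were scaled by TMM, and edgeR 4.0.16 (glmQLFit and glmQLFTest, R 4.3.3) was run without a filter on the 6 libraries of each of 6 pairs of groups. P-values were adjusted by Benjamini-Hochberg over 23893 genes, at an FDR of 0.01, and intervals are 95%. The interaction was fitted on 12 libraries. Levels per kb used merged exons of GENCODE vM1, another annotation than the RefSeq exons of the counts.

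The labels number the libraries of each group 1 to 3. Over 13720 genes, deviations from group means correlated at 0.261 to 0.485 in all 18 pairs with the same number and at −0.384 to −0.0494 in the other 36, so the numbers were taken to pair the libraries and were used as a block in a separate fit. The counts of replicates differed beyond sampling noise (dispersion index 6.44 to 10.9). At these depths 3 counts are 0.687 to 1.73 CPM.

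Members and gene lists were chosen with earlier results of these data known. Named beside the 7 members were up to 4 called genes per list by adjusted p, the gene of each list with the highest mean CPM, the 2 most alike genes of each member, and Top1; Gabrg1 and the marker genes were added after their values were seen. Alternatives were other scalings, filterByExpr, DESeq2 1.42.0, edgeR's exact test, a fit on all 12 libraries, the block, leaving out each library and, added later, replicates 1 and 3 alone. The tests were tried on simulated counts first. Shares were taken over the alpha or beta members alone. Some genes of the lists are not reported here. GC content was not analysed here.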

Additional observations from a re-analysis of the deposited data

Results flagged for a closer look

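Kctd12, for an auxiliary subunit of GABA-B receptors, drew attention because its topotecan effect differed between genotypes in the interaction test (−1.48 ± 0.28 on the log2 scale, edgeR quasi-likelihood test, Benjamini-Hochberg adjusted p = 0.00786). The adjusted p was above 0.01 without 9 of the 12 single libraries, between 0.0103 and 0.0246, and 0.0158 with filterByExpr, and the blocked edgeR value was −1.48 (adjusted p = 3.13e-08). It rose by 1.40 with topotecan in WT cells and had a log2 fold change of −0.08 (interval −0.46 to 0.30) with topotecan in Top1 cKO cells. Its level was already higher after deletion alone, at 289 ± 36.5 CPM (SD, n = 3) in Top1 cKO-Veh against 138 ± 37.4 CPM in WT-Veh, with no overlap and a 2.11-fold higher fitted level (edgeR adjusted p = 0.0244, with the block 1.46e-16). No gene among the 7 GABA-A receptor subunits met this criterion, and groups of 3 libraries are too small for a test of single outlying libraries.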

How the results depend on the processing

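Gabrb1 kept both of its calls against WT-Veh under every scaling, the filter, DESeq2, the exact test, the fit on all 12 libraries, the block and each left-out library, and lost that in Top1 cKO-Topot with replicates 1 and 3 alone. Over all alternatives 683 values of the 7 genes kept their direction and side of the threshold, 27 passed it newly, 1 no longer passed and 50 turned direction, none of them called. The cause of these changes was not tested. In WT-Topot against WT-Veh the count of subunit genes called lower, 1 in the report, was 2 by DESeq2, 2 with replicates 1 and 3 alone, and 1 to 2 without single libraries. In Top1 cKO-Veh against WT-Veh it was 1 by DESeq2. In Top1 cKO-Topot against WT-Veh it was 2 by DESeq2, 0 with replicates 1 and 3 alone and 1 to 2 without single libraries. In WT-Topot against Top1 cKO-Veh it was 1 with replicates 1 and 3 alone and 0 to 1 without single libraries.

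With the replicate number as a block, which pairs the libraries, the counts called lower against WT-Veh were 3 for WT-Topot, 2 for Top1 cKO-Veh and 4 with both manipulations. The count was 1 for the drug within Top1 cKO cells and 2 in WT-Topot against Top1 cKO-Veh, and 1 gene was called higher in Top1 cKO-Topot against WT-Topot. The block changed no other call among the 7 genes.

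Values near 0 turned direction. In WT-Topot against WT-Veh, Gabra3 was 0.060 with library totals and 0.013 with upper quartile scaling. In Top1 cKO-Topot against Top1 cKO-Veh, Gabra4 was −0.0039 in the fit on all 12 libraries and −0.050 with replicates 1 and 3 alone, where Gabrd was 0.034. In WT-Topot against Top1 cKO-Veh, Gabra2 was 0.032 with library totals. The Gabra2 interaction was 0.036 with DESeq2 size factors, 0.0087 with upper quartile scaling, 0.028 with filterByExpr, 0.079 by DESeq2, 0.13 with the block and 0.26 with replicates 1 and 3 alone.

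Without single libraries, the values in WT-Topot against WT-Veh ran from −1.48 to 0.63 for Gabra2, −0.13 to 0.18 for Gabra3, −0.26 to 0.071 for Gabra4 and −0.10 to 0.40 for Gabrd. In Top1 cKO-Veh against WT-Veh they ran from −1.44 to 0.66 for Gabra2, and in Top1 cKO-Topot against WT-Veh from −1.69 to 0.31 for Gabra2. In Top1 cKO-Topot against Top1 cKO-Veh they ran from −1.35 to 0.73 for Gabra2, −0.031 to 0.29 for Gabra3, −0.080 to 0.062 for Gabra4, −0.61 to 0.10 for Gabra5 and −0.19 to 0.18 for Gabrd. In WT-Topot against Top1 cKO-Veh they ran from −1.15 to 1.07 for Gabra2 and −0.021 to 0.23 for Gabra5, and in Top1 cKO-Topot against WT-Topot from −1.33 to 0.80 for Gabra2 and −0.069 to 0.27 for Gabrb2. For the interaction they ran from −1.01 to 1.12 for Gabra2, −0.049 to 0.31 for Gabra3, −0.0655 to 0.26 for Gabra4 and −0.45 to 0.052 for Gabrd.

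With filterByExpr, the calls of Ptprd and Top1 in Top1 cKO-Veh (edgeR adjusted p = 0.023 and 0.0143) and those of Magi2, Il1rapl1, Hap1 and Kctd12 in Top1 cKO-Topot (0.0115 to 0.0328) were lost. With replicates 1 and 3 alone, those of Il1rapl1, Plcl1 and Plcl2 in WT-Topot (edgeR adjusted p = 0.0131 to 0.0203), Ptprd in Top1 cKO-Veh (0.0314) and Gphn, Magi2, Il1rapl1, Hap1 and Kctd12 in Top1 cKO-Topot (0.0226 to 0.359) were lost. Other scalings moved the median of all genes by at most 0.0867 on the log2 scale. Counts per library were 6 to 119 for Gabrb1 and 12 to 56 for Gabrd, and the part of depth in their values was not tested. For Gabrd, a change within the interval of each comparison is not left out.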
